A study of Mus musculus with 15 samples.

Results

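The 41 genes described here drive the cell division cycle, and they were taken by symbol from a list fixed by name. They fall into 17 genes of S phase, 19 genes of mitosis, and a group of 5 made of the D-type cyclins and their kinases Cdk4 and Cdk6. All 41 were found among the 33223 genes of the count tables, and all 41 passed the filter on low counts in every comparison. The libraries hold bulk RNA from mouse cortex 1 day after a controlled cortical impact, a moderate piston injury to the right parietal cortex. The injured cortex was dissociated and run over magnetic beads against CD45, the surface protein of leukocytes and microglia, and CD31, a protein of endothelial cells. Libraries came from the CD45 fraction and from the flow-through, labelled as all other cortical cells. All mice carried floxed EphA4 alleles. The WT mice are given as EphA4 f/f WT, and the KO mice also carried VeCadCreERT2, a tamoxifen-inducible Cre under the endothelial VE-cadherin promoter. The labels give neither the age of the mice nor the tamoxifen schedule. Entering the comparisons were 7 flow-through libraries (4 WT and 3 KO) and 7 CD45 libraries (3 WT and 4 KO).

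A dividing cell passes through G1, S phase, G2 and mitosis. D-type cyclins with Cdk4 or Cdk6 start the passage out of G1 by phosphorylating the retinoblastoma protein, which frees E2F factors to switch on the genes of S phase, among them the Mcm helicase subunits that open the DNA and the enzymes that make deoxynucleotides. Genes of G2 and mitosis are switched on later by the B-Myb and FoxM1 factors after the repressive DREAM complex has left their promoters, so their transcripts mark cells that are close to division. In the injured cortex, oligodendrocyte precursors, neuroblasts, astrocytes, microglia and vascular cells can divide.

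Total counts ran from 19204814 to 27270907 in the flow-through libraries and from 11574414 to 31337948 in the CD45 libraries. CPM is the usual count scaled to library size, here with TMM factors over the 14 libraries together, and plain CPM is the same scaled to the library total alone. Epha4, the targeted receptor, read 31.1 to 35.3 CPM in WT and 30.3 to 35.8 in KO flow-through, 3.29 to 3.61 in WT and 1.99 to 4.11 in KO CD45, and since neither fraction is an endothelial isolate this does not check the deletion. Ptprc, which encodes CD45, read 0.66 to 1.22 plain CPM in the flow-through and 804.9 to 1043 in the CD45 libraries. Another library labelled flow-through WT stands in the CD45 table, with 905.8 plain CPM of Ptprc, and was left out by the rule that chose the libraries. No label ties a library to an animal, and the p-values therefore reflect library-to-library spread, some of which may be technical.

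All 19 mitosis genes were lower in the CD45 fraction than in the flow-through, with a median log2 fold change of -2.16, while the S phase genes divided into 6 that were higher, 5 that were lower and 6 that did not pass the test. The tests were edgeR's quasi-likelihood test with Benjamini-Hochberg adjustment over 18098 genes, called at an adjusted p under 0.05. The fractions differed in most of the transcriptome: 86.1% of all genes tested were called, 41.4% as higher and 44.7% as lower in CD45, with a median of -0.05. For none of the 19 mitosis genes did the 7 CD45 libraries overlap with the 7 flow-through libraries, and 36.4% of all genes were lower in CD45 without overlap and 33.1% higher. These are bulk samples, so fewer dividing cells and less RNA of these genes per cell cannot be told apart.

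**Figure D1:**
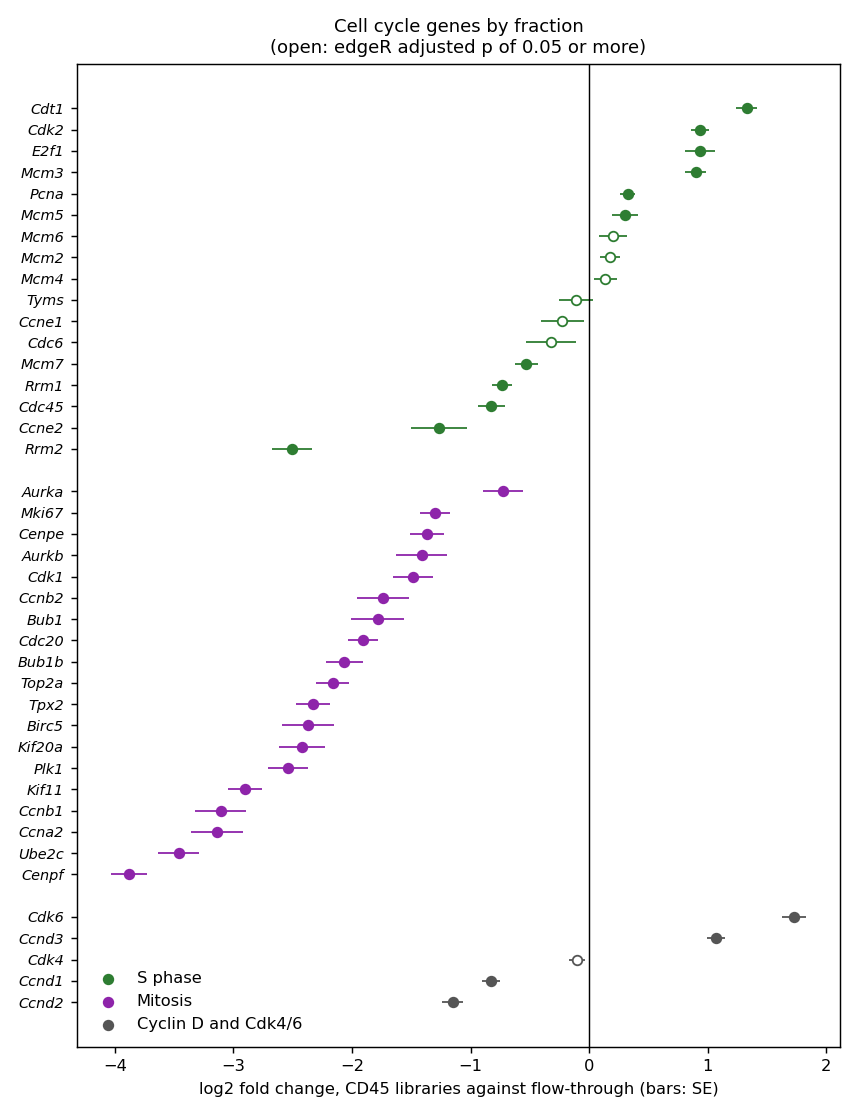
Log2 fold change of each of the 41 genes in the 7 CD45 libraries against the 7 flow-through libraries on the x axis. Bars are 1 SE derived from edgeR's F statistic, and genes are ordered within their group on the y axis. Every mitosis gene lies below 0, from -0.73 for Aurka to -3.88 for Cenpf, while S phase genes lie on both sides; without any scaling factor all points shift by -0.53, which moves Pcna, Mcm2, Mcm4, Mcm5 and Mcm6 below 0.

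Summed over its 19 genes, the mitosis group read 492, 481, 418 and 480.4 CPM in the flow-through WT libraries and 432, 337 and 455 in the flow-through KO libraries. The same sum was 119.7, 111 and 86.5 CPM in CD45 WT and 103.9, 140.9, 75.0 and 112 in CD45 KO. The highest CD45 library therefore stayed below the lowest flow-through library. With TMM factors the S phase sum overlapped between fractions, at 581 to 716 CPM in the flow-through and 562 to 806 CPM in CD45. In plain CPM it did not, and all CD45 libraries lay lower, at 460.2 to 684.9 against 690.9 to 857.2 in the flow-through. Within a library the ratio of the groups needs no scaling: for every 100 counts on S phase genes the flow-through libraries had 58.05 to 74.8 counts on mitosis genes, and the CD45 libraries had 12.87 to 17.95. The library left out of the fits had 12.8. In the flow-through the ratio was 69.4, 74.8, 66.4 and 70.2 in WT and 69.5, 58.05 and 63.6 in KO, and in CD45 it was 15.8, 13.8 and 12.87 in WT and 14.15, 17.7, 13.35 and 17.95 in KO. Both genotypes showed the gap between fractions.

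**Figure D2:**
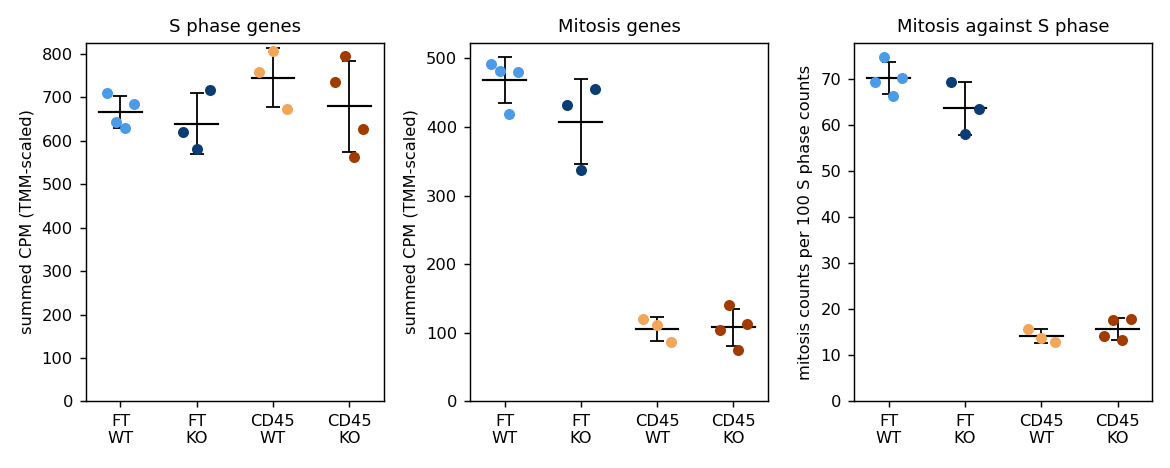
Each point is 1 library, with the group mean and SD; the y axes show the summed CPM of the 17 S phase genes, the summed CPM of the 19 mitosis genes, and mitosis counts per 100 S phase counts, by fraction (FT is flow-through) and genotype. With TMM factors the S phase sums overlap between fractions, which they do not in plain CPM. The mitosis sums lie between 337 and 492 CPM in the flow-through and between 75.0 and 141 CPM in CD45.

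Cyclins A and B and the kinase of mitotic entry were all lower in CD45. Ccnb1 (ENSMUSG00000041431, GRCm38 chr13:100778650-100786570, minus strand) encodes cyclin B1, the partner of Cdk1 at entry into mitosis. Its values were 21.7, 22.7, 17.6 and 17.8 CPM in WT flow-through, 16.03, 12.8 and 15.3 in KO flow-through, 2.59, 2.82 and 1.67 in WT CD45 and 1.69, 2.98, 0.949 and 0.803 in KO CD45 libraries. It was 8.62 times lower in CD45 (log2 fold change -3.11, SE 0.213, adjusted p 8.22e-10 by edgeR). Ccna2, cyclin A of S phase and G2, read 37.1, 32.7, 28.1 and 32.3 CPM (WT flow-through), 31.4, 22.5 and 29.8 (KO flow-through), 3.56, 3.34 and 2.15 (WT CD45) and 2.96, 7.31, 2.74 and 2.35 (KO CD45). Its log2 fold change was -3.14 (SE 0.221), and 1 CD45 KO library stood well above the other 6 CD45 libraries without reaching the flow-through. Cdk1, the kinase these cyclins activate, showed a smaller difference of -1.48 (SE 0.171), with 22.6, 22.1, 16.3 and 19.8 CPM (WT flow-through), 15.8, 14.02 and 20.9 (KO flow-through), 7.63, 7.28 and 5.104 (WT CD45) and 6.67, 9.68, 3.900 and 5.497 (KO CD45). Ccnb2, cyclin B2, had a log2 fold change of -1.74.

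Ube2c and Cdc20, which work with the anaphase-promoting complex, were lower in CD45. Ube2c, the ubiquitin-conjugating enzyme that serves this complex, was 10.99 times lower in CD45 (log2 fold change -3.46, SE 0.173). It read 17.1, 15.9, 14.5 and 14.5 CPM (WT flow-through), 15.6, 12.3 and 16.9 (KO flow-through), 1.88, 1.22 and 1.53 (WT CD45) and 1.35, 1.35, 0.422 and 1.54 (KO CD45). The lowest CD45 value rests on 4 counts, and 22.8% of the exonic length of Ube2c overlaps Tnnc2 on the opposite strand. Cdc20, which activates the complex at anaphase, read 14.3, 15.5, 11.7 and 12.98 CPM (WT flow-through), 13.6, 10.8 and 15.4 (KO flow-through), 4.27, 4.09 and 3.91 (WT CD45) and 3.82, 3.26, 2.42 and 2.78 (KO CD45). Its log2 fold change was -1.91 (SE 0.126), and all CD45 libraries lay below all flow-through libraries.

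Kinetochore genes, checkpoint kinases and spindle motors had log2 fold changes from -3.88 to -1.37. Cenpf (ENSMUSG00000026605, GRCm38 chr1:189640606-189688086, minus strand), a large protein of the kinetochore and nuclear matrix made in G2, had the largest difference of the 41 genes. It read 31.2, 31.01, 28.6 and 32.04 CPM (WT flow-through), 28.1, 20.98 and 25.2 (KO flow-through), 1.73, 1.597 and 1.53 (WT CD45) and 1.54, 3.38, 1.69 and 2.04 (KO CD45). The 14.7-fold lower level in CD45 (log2 fold change -3.88, SE 0.150, adjusted p 3.86e-13 in edgeR) left from 16 to 60 counts per CD45 library. Cenpe, a kinetochore motor, differed far less, by -1.37 (SE 0.144), and read 17.1, 15.4, 16.3 and 15.3 CPM (WT flow-through), 14.8, 10.8 and 14.6 (KO flow-through), 7.22, 5.78 and 3.82 (WT CD45) and 5.55, 7.48, 4.64 and 5.31 (KO CD45). Among the other spindle motors and organisers the log2 fold change was -2.90 for Kif11, which pushes the spindle poles apart, -2.42 for Kif20a, a motor of the central spindle, and -2.33 for Tpx2, which activates Aurora A on the spindle. The checkpoint kinases Bub1 and Bub1b had log2 fold changes of -1.78 and -2.06, and Plk1, the polo-like kinase, had -2.54.

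The Aurora kinases were among the least changed. Aurka, the kinase of the spindle poles, had the smallest difference of the group, 1.66 times lower in CD45 (log2 fold change -0.73, SE 0.166, adjusted p 0.000695 in edgeR). Its values were 8.06, 8.51, 6.91 and 7.46 CPM in WT flow-through, 7.74, 7.45 and 8.32 in KO flow-through, 4.83, 4.604 and 3.58 in WT CD45 and 6.596, 6.25, 4.64 and 2.72 in KO CD45 libraries. The highest CD45 library lay just below the lowest flow-through library. Aurkb and Birc5 (survivin), both of the chromosomal passenger complex, had log2 fold changes of -1.41 and -2.37.

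Mki67 and Top2a were the most abundant mitosis genes per kb of exon in both fractions. Mki67 (ENSMUSG00000031004, GRCm38 chr7:135689784-135716361, minus strand), the Ki-67 antigen that coats mitotic chromosomes and the usual marker of cycling cells, read 73.7, 82.6, 77.3 and 86.9 CPM (WT flow-through), 78.7, 57.4 and 87.5 (KO flow-through), 31.1, 28.3 and 25.9 (WT CD45) and 28.4, 39.5, 25.6 and 45.3 (KO CD45). It was 2.46 times lower in CD45 (log2 fold change -1.30, SE 0.125), and in this group Aurka alone had a smaller estimate. Top2a, the topoisomerase that untangles chromosomes, read 105, 95.3, 85.2 and 105 CPM (WT flow-through), 89.6, 70.1 and 82.9 (KO flow-through), 22.8, 23.8 and 14.3 (WT CD45) and 18.4, 24.9, 12.97 and 20.7 (KO CD45) and was 4.48 times lower (log2 fold change -2.16, SE 0.139). Per kb of exon the mean level of Top2a was below that of Mki67 in CD45 (2.19 against 3.18 CPM per kb) and exceeded it in the flow-through (10.04 against 7.73).

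**Figure D3:**
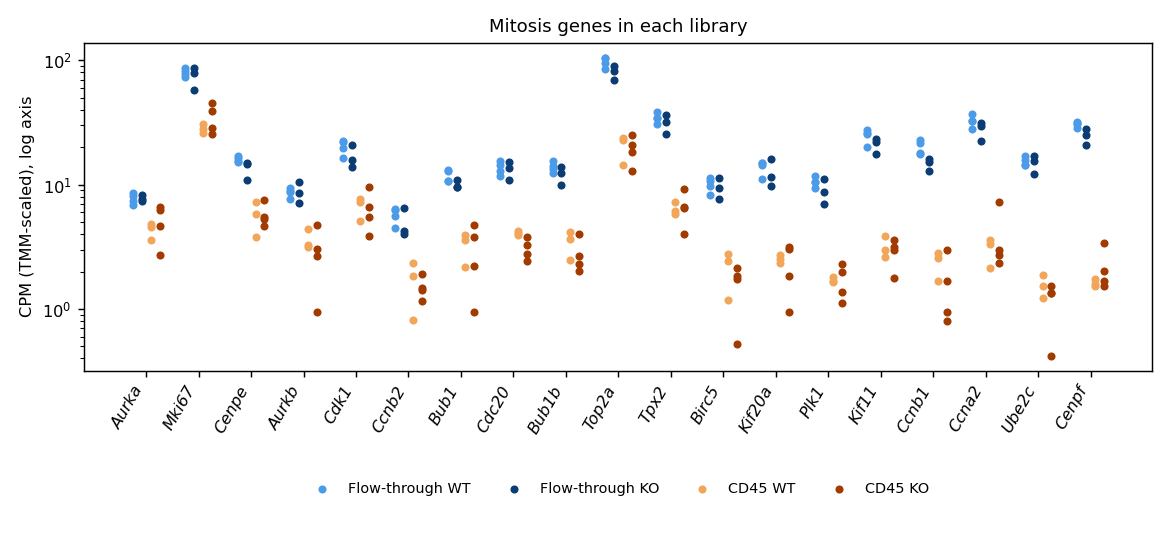
CPM of the 19 mitosis genes in each library on a log axis, genes along the x axis in order of their difference between fractions and points coloured by fraction and genotype. For every gene the flow-through points lie above all CD45 points, with the narrowest gap for Aurka and the widest for Cenpf.

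The S phase genes did not move as a group. Cdt1, Cdk2, E2f1, Mcm3, Pcna and Mcm5 were higher in CD45, Rrm2, Ccne2, Cdc45, Rrm1 and Mcm7 were lower, and Ccne1, Cdc6, Mcm2, Mcm4, Mcm6 and Tyms did not pass. The group's median log2 fold change was 0.14. This split depended on the scaling. Upper quartile scaling shifted the log2 fold changes of all genes by -0.25 and gave 4 higher and 8 lower genes with a median of -0.12, and library totals with no scaling factor shifted them by -0.53 and gave 4 higher and 12 lower with a median of -0.39. Leaving out 1 library at a time gave 5 to 8 higher and 5 to 6 lower S phase genes, and 19 lower mitosis genes each time. Cdt1, Cdk2, E2f1 and Mcm3 stayed higher and Rrm2, Ccne2, Cdc45, Rrm1 and Mcm7 stayed lower under both of these scalings.

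Cdt1, Cdk2 and E2f1 had the 3 highest estimates of the S phase genes. Cdt1 (ENSMUSG00000006585, GRCm38 chr8:122568015-122573554, plus strand) loads the Mcm helicase onto origins in G1 and is destroyed in S phase. It read 15.1, 15.5, 14.5 and 17.9 CPM (WT flow-through), 16.03, 15.4 and 19.98 (KO flow-through), 41.4, 43.98 and 49.9 (WT CD45) and 40.6, 40.1, 36.5 and 33.8 (KO CD45), and was 2.51 times higher in CD45 (log2 fold change 1.33, SE 0.085, adjusted p 2.51e-10 in edgeR). Cdk2, the kinase of cyclins E and A, read 20.4, 19.8, 21.5 and 23.1 CPM (WT flow-through), 19.5, 19.1 and 25.3 (KO flow-through), 45.2, 42.2 and 40.3 (WT CD45) and 39.4, 40.8, 36.1 and 39.96 (KO CD45). E2f1, an activator of S phase genes, read 11.9, 10.2, 9.71 and 11.01 CPM (WT flow-through), 11.2, 9.899 and 13.6 (KO flow-through), 24.3, 26.6 and 16.5 (WT CD45) and 22.8, 23.9, 16.8 and 16.6 (KO CD45). Neither gene overlapped between fractions, and their log2 fold changes were 0.94 (SE 0.076) and 0.93 (SE 0.128). The CD45 libraries of E2f1 were spread more widely than those of Cdk2.

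The helicase subunits Mcm2 to Mcm7 act as 1 ring of equal parts, and yet their estimates differed. Mcm3 read 45.6, 41.03, 41.6 and 43.6 CPM (WT flow-through), 42.5, 36.97 and 51.9 (KO flow-through), 83.9, 97.7 and 77.8 (WT CD45) and 83.4, 84.2, 61.6 and 72.7 (KO CD45). Its log2 fold change was 0.90 (SE 0.090), with no overlap between the fractions. Mcm4 read 63.2, 50.7, 58.6 and 62.2 CPM (WT flow-through), 55.7, 52.5 and 58.8 (KO flow-through), 71.6, 73.9 and 50.6 (WT CD45) and 63.6, 73.1, 52.7 and 51.9 (KO CD45), and its libraries overlapped (log2 fold change 0.14, SE 0.099, adjusted p 0.20 in edgeR). Mcm5 was 0.30, which passed but did not without flow-through KO replicate 2 (0.24) or CD45 WT replicate 2 (0.25), Mcm2 and Mcm6 were 0.18 and 0.20, which did not, and Mcm7 was -0.53 (SE 0.099), which passed as lower. The gap between Mcm3 and Mcm7 does not depend on the scaling and was not tested, and 12.6% of the exonic length of Mcm7 overlaps other genes, including Ap4m1 on the opposite strand. Cdc45, which joins the ring to form the working helicase, read 11.8, 12.8, 10.4 and 12.5 CPM (WT flow-through), 13.3, 10.9 and 13.1 (KO flow-through), 7.73, 7.24 and 6.49 (WT CD45) and 6.97, 8.102, 5.59 and 5.31 (KO CD45), all CD45 values lying below the flow-through (log2 fold change -0.83, SE 0.114). Cdc6, which loads the ring together with Cdt1, had a log2 fold change of -0.32 (SE 0.210) that did not pass.

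Pcna, the sliding clamp of the polymerases, was the most abundant S phase gene per kb in both fractions, at 49.3 and 61.6 CPM per kb in flow-through and CD45. It read 127, 118, 114 and 120.4 CPM (WT flow-through), 109, 115 and 124 (KO flow-through), 154, 148 and 141 (WT CD45) and 157, 163, 140.2 and 131 (KO CD45). The fractions did not overlap and the log2 fold change was 0.32 (SE 0.062), but it became -0.20 with no scaling factor. Rrm2 (ENSMUSG00000020649, GRCm38 chr12:24708241-24714146, plus strand), the regulated subunit of ribonucleotide reductase, had the largest difference among the nucleotide genes of this group. It read 46.6, 42.2, 36.6 and 42.6 CPM (WT flow-through), 36.8, 32.6 and 45.4 (KO flow-through), 7.33, 7.94 and 5.39 (WT CD45) and 5.62, 11.7, 6.22 and 5.31 (KO CD45). Its level was 5.68 times lower in CD45 (log2 fold change -2.51, SE 0.167, adjusted p 7.65e-10 in edgeR), an estimate beyond the mitosis median of -2.16. Rrm1, the large subunit of the same enzyme, had -0.74 (SE 0.085), and Tyms, which makes thymidylate, had -0.11 (SE 0.142), which did not pass.

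The E-type cyclins of S phase entry were low in both fractions. Ccne2 read 7.48, 5.27, 6.31 and 6.54 CPM (WT flow-through), 6.28, 6.22 and 5.28 (KO flow-through), 2.44, 3.01 and 1.48 (WT CD45) and 2.96, 4.61, 0.949 and 2.41 (KO CD45). It was 2.41 times lower in CD45 (log2 fold change -1.27, SE 0.236), down to 9 counts in 1 library, and 17.4% of its exonic length overlaps Ints8 on the opposite strand. Ccne1 overlapped between the fractions (log2 fold change -0.23, SE 0.182, adjusted p 0.25 in edgeR).

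The D-type cyclins and their kinases divided between the fractions. Ccnd1 and Ccnd2 were lower in CD45, Ccnd3 and Cdk6 were higher, and Cdk4 did not pass. Ccnd1 read 209, 205, 204 and 219.8 CPM (WT flow-through), 196, 229.9 and 203 (KO flow-through), 102, 119.6 and 118 (WT CD45) and 116, 136, 101 and 139 (KO CD45), 1.78 times lower in CD45 (log2 fold change -0.83, SE 0.077), and 23.4% of its exonic length overlaps LTO1 on the opposite strand. Ccnd2 (ENSMUSG00000000184, GRCm38 chr6:127125162-127152193, minus strand) read 215, 210.4, 211 and 179 CPM (WT flow-through), 209, 139.5 and 156 (KO flow-through), 81.2, 91.1 and 99.98 (WT CD45) and 67.9, 76.1, 81.9 and 80.9 (KO CD45), 2.22 times lower (log2 fold change -1.15, SE 0.090). Neither overlapped between the fractions. Ccnd3 (ENSMUSG00000034165, GRCm38 chr17:47505051-47599691, plus strand), a D-type cyclin used widely in blood cells, read 44.9, 53.3, 41.002 and 47.5 CPM (WT flow-through), 46.3, 40.5 and 53.3 (KO flow-through), 112, 114 and 97.8 (WT CD45) and 90.96, 84.2, 85.6 and 97.5 (KO CD45). It was 2.10 times higher in CD45 (log2 fold change 1.07, SE 0.077), without overlap.

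Cdk6 (ENSMUSG00000040274, GRCm38 chr5:3341485-3531008, plus strand), the D-cyclin kinase prominent in blood cells, read 29.4, 26.6, 27.7 and 32.1 CPM (WT flow-through), 30.6, 36.6 and 22.9 (KO flow-through), 88.9, 102 and 89.8 (WT CD45) and 88.3, 96.7, 117 and 107 (KO CD45). It had the largest log2 fold change above 0 among the 41 genes, 3.31 times higher in CD45 (log2 fold change 1.73, SE 0.098, adjusted p 5.46e-11 in edgeR). Cdk4 read 151, 148, 126 and 136 CPM (WT flow-through), 136, 126 and 139 (KO flow-through), 129, 131 and 125 (WT CD45) and 149, 118, 117 and 124 (KO CD45), with overlapping fractions and a log2 fold change of -0.10 (SE 0.067, adjusted p 0.17 in edgeR). Cdk4 passed as lower with upper quartile scaling (-0.35) and with no scaling factor (-0.63), and 19.7% of its exonic length overlaps Tspan31. The directions of the other 4 genes held under both of these scalings. Per kb of exon the flow-through order was Ccnd1 at 44.5, Cdk4 at 42.3, Ccnd2 at 20.03, Ccnd3 at 5.32 and Cdk6 at 2.10 CPM per kb, and the CD45 order was Cdk4 at 39.3, Ccnd1 at 25.2, Ccnd3 at 11.1, Ccnd2 at 8.79 and Cdk6 at 7.04.

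**Figure D4:**
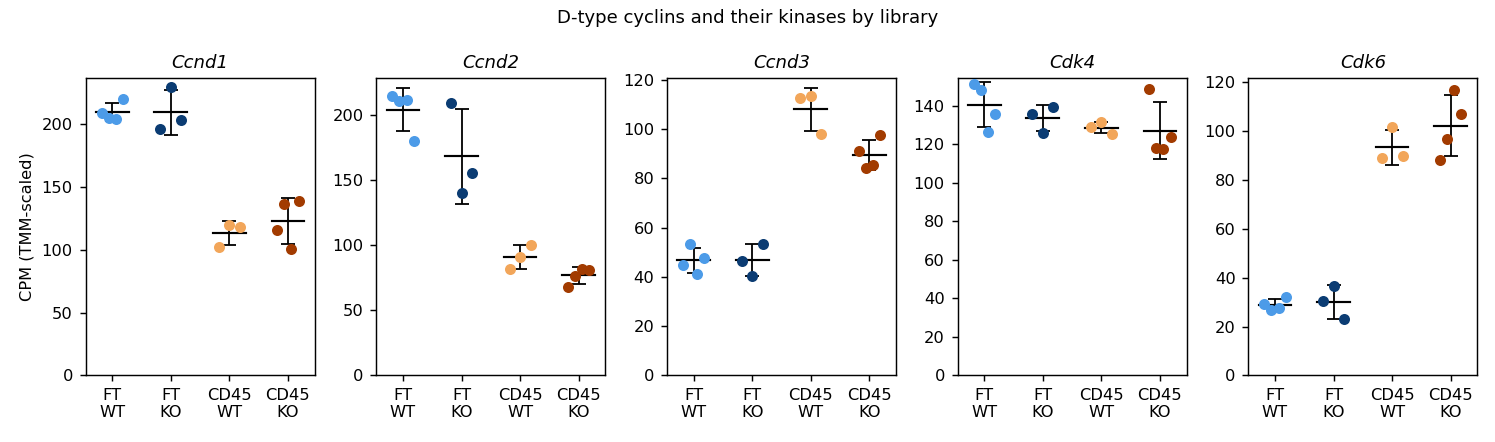
CPM of Ccnd1, Ccnd2, Ccnd3, Cdk4 and Cdk6 on y axes that start at 0, 1 point per library with group mean and SD, by fraction and genotype. Ccnd1 and Ccnd2 lie higher in the flow-through, Ccnd3 and Cdk6 lie higher in CD45, and Cdk4 overlaps.

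Most of the mitosis genes with a promoter window also share promoter letters. The CHR element, which the DREAM and B-Myb complexes bind, was searched as TTTGAA or TTCGAA, the CCAAT box as CCAAT, and E2F sites as TTGGCGC or TTCGCGC, on both strands, in RefSeq promoter windows of 300 bases (250 before the start, 50 after; build GRCm38.p6). Windows were found for 33 of the 41 genes, 35 windows in all. For 26 of these genes the end of the window matched the 5' part of a transcript. Some windows, among them those of E2f1, Cdc6, Mcm7 and Cdk6, lie wholly inside the annotated gene and not upstream of it. Those of E2f1 and Cdc6 count as S phase windows without E2F letters. CHR letters were in 12 of 15 mitosis windows (80%), in 3 of 16 S phase windows (18.8%) and in 0 of 4 windows of the D-cyclin group, against 19.2% of all 32851 windows. The 12 mitosis windows with CHR letters all held CCAAT too, a pairing present in 7.5% of all windows. E2F letters were in 5 of 16 S phase windows (31.2%) and 3 of 15 mitosis windows (20%), against 3.9% of all windows. Among the 17564 windows of protein coding genes, CHR letters were in 14.8%, CHR with CCAAT in 5.9% and E2F letters in 5.7%. A match of letters is not a site of binding, and nothing was tested here.

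Promoter stretches of 182 bases, from 170 before the start to 12 after it, are given for 3 mitosis genes with CHR letters and large fraction differences and for 2 Mcm genes without them, chosen after the values were seen. Other members do not follow this contrast. Ccnb1, Birc5 and Cenpe hold no CHR letters in their windows at log2 fold changes of -3.11, -2.37 and -1.37. Aurka holds them at -0.73, and the S phase genes Mcm2, Mcm7 and Cdc45 hold them at 0.18, -0.53 and -0.83. Mcm7 has another window, at chr5:138171217-138171516, that holds none. Capitals mark the letters searched, on either strand, and overlapping E2F matches run together. The stretches lie at chr1:189688075-189688256 (minus strand) for Cenpf, chr2:164769759-164769940 (plus) for Ube2c, chr19:37376212-37376393 (plus) for Kif11, chr8:75109339-75109520 (plus) for Mcm5 and chr1:128359694-128359875 (minus) for Mcm6.
Cenpf: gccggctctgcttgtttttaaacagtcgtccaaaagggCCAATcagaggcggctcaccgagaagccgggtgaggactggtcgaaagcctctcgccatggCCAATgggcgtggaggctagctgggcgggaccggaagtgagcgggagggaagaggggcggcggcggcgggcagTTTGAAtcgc
Ube2c: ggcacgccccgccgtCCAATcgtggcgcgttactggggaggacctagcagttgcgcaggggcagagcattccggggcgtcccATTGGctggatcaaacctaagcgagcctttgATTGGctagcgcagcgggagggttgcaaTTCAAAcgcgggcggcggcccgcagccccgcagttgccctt
Kif11: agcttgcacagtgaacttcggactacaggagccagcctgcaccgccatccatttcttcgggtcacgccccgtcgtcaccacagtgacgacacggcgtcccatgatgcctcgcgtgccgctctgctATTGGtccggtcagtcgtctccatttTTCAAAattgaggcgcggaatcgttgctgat
Mcm5: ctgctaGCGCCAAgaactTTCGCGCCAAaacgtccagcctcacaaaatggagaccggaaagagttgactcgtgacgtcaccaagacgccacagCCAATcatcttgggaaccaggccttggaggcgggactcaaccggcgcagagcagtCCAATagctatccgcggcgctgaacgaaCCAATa
Mcm6: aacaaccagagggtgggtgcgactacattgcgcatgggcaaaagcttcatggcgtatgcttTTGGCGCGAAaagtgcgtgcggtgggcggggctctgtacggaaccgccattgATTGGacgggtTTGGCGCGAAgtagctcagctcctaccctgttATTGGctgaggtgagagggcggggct
Counted from the start, the CHR letters begin at position 3 in Cenpf, -29 in Ube2c and -19 in Kif11, downstream of 1 or more CCAAT boxes in each. Mcm5 and Mcm6 hold CCAAT boxes and E2F letters in this stretch and no CHR letters. Mcm5 and Mcm6 had log2 fold changes of 0.30 and 0.20 between fractions (below 0 with no scaling factor), against -3.88, -3.46 and -2.90 for Cenpf, Ube2c and Kif11.

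Other genes of the cycle, outside the 41, were counted the same way, beside the 41.4% higher and 44.7% lower among all genes. Of 44 further mitotic genes 34 were lower in CD45, 5 were higher and 5 did not pass, with a median of -1.54. Anln, an organiser of the cleavage furrow, had -4.76, Prc1, which bundles the central spindle, had -3.51, and Ckap2, a spindle protein, had -2.60. Of 35 further replication genes 19 were lower, 8 were higher and 8 did not pass, with a median of -0.31. Slbp, the binding protein of histone mRNA stem-loops, was higher at 1.17, while Dut, which removes dUTP, was lower at -1.53. With no scaling factor these counts became 39 lower and 3 higher for the mitotic genes and 28 lower and 3 higher for the replication genes, where 59.3% of all genes were lower and 28.1% higher.

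Markers of many cell types moved with the fraction, and their part in the results was not tested. In CD45 the sums were 11510 to 17230 CPM for monocytes and macrophages, 4152 to 8059 for neutrophils and 3448 to 4320 for homeostatic microglia. The flow-through sums were 226.5 to 369.9, 4.39 to 8.10 and 116 to 144 CPM. Mature oligodendrocytes and astrocytes read 14200 to 25210 and 5486 to 6789 CPM in the flow-through, against 325 to 1431 and 162 to 235.5 in CD45. All 7 markers of oligodendrocyte precursors and all 9 of neuroblasts and transit amplifying cells were lower in CD45, with sums of 993.1 to 1258 and 408 to 646 CPM in the flow-through against 19.3 to 39.3 and 4.01 to 8.09 CPM in CD45. Of the 6 markers of neutrophil precursors 4 were tested and all 4 were higher in CD45, with a sum of 286 to 540 CPM against 0.465 to 0.759 in the flow-through, where Ctsg was at 0 in every library. Chil3 made up nearly all of that sum, at 272 to 524 CPM in CD45, while Mpo read 0.225 to 2.003 CPM there and Elane and Ctsg, not tested, read 0 to 0.949 and 0 to 1.48 CPM. Endothelial markers were higher in CD45 for 7 of 7, at 328 to 528 CPM against 33.7 to 48.0. The mitochondrial share of counts was 2.58 to 4.47% in the flow-through and 0.75 to 1.42% in CD45.

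Deletion of EphA4 in endothelial cells was compared within each fraction. In the flow-through none of the 41 genes passed the edgeR test between KO and WT, where 260 of 16546 genes did (1.57% of all genes tested, 0.151% as lower). The median log2 fold change of the mitosis genes was -0.21, and 17 of 19 estimates were below 0, against 51.7% of all genes. At an unadjusted p under 0.05 there were 4 mitosis genes, 0 S phase genes and 1 gene of the D-cyclin group, against 11% of all genes. The S phase median was -0.05, with 12 of 17 below 0, and the median of all genes was -0.01.

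Ccnb1 had the smallest p of the 41 in the flow-through. It read 21.7, 22.7, 17.6 and 17.8 CPM in WT and 16.03, 12.8 and 15.3 in KO, with all KO libraries below all WT libraries. The log2 fold change was -0.45 (SE 0.124, adjusted p 0.12 in edgeR). Ccnb1 passed with DESeq2 (-0.45, adjusted p 0.047) and without the filter on low counts (-0.45, edgeR adjusted p 0.014). Cenpf read 31.2, 31.01, 28.6 and 32.04 CPM in WT and 28.1, 20.98 and 25.2 in KO, also without overlap (log2 fold change -0.32, SE 0.103, adjusted p 0.21 in edgeR). Cenpe was the third gene without overlap, at 17.1, 15.4, 16.3 and 15.3 CPM in WT and 14.8, 10.8 and 14.6 in KO (-0.27, SE 0.123, adjusted p 0.45 in edgeR). Over all genes tested, 4.38% were lower in KO without overlap and 6.99% were higher.

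Top2a read 105, 95.3, 85.2 and 105 CPM in WT and 89.6, 70.1 and 82.9 in KO, and the highest KO library exceeded the lowest WT library (log2 fold change -0.29, SE 0.105, adjusted p 0.30 in edgeR). Ccnd2 read 215, 210.4, 211 and 179 CPM in WT and 209, 139.5 and 156 in KO, with 1 KO library among the WT values (-0.29, SE 0.131, adjusted p 0.44 in edgeR). Mki67 read 73.7, 82.6, 77.3 and 86.9 CPM in WT and 78.7, 57.4 and 87.5 in KO, overlapping (-0.12, SE 0.119, adjusted p 0.78 in edgeR). Cdk1 and Pcna gave -0.27 (SE 0.145) and -0.06 (SE 0.083). Cdc20, Ube2c, Aurka and Aurkb lay between -0.07 and 0.01.

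A single library, flow-through KO replicate 2, was the lowest of the 7 flow-through libraries for 18 of 19 mitosis genes and 10 of 17 S phase genes, and for 12.3% of all genes tested. Without it the mitosis median was -0.09, the S phase median was 0.02, the Mki67 difference was 0.03 and no member passed. The summed markers of neuroblasts and transit amplifying cells were also lower in the KO flow-through libraries. They read 526, 646, 563 and 529 CPM in WT and 500.3, 425 and 408 in KO, without overlap. All 9 of those markers had estimates below 0, with a median of -0.34, and none passed. Markers of oligodendrocyte precursors lay the other way, at 993.1 to 1054 CPM in WT and 1057 to 1258 in KO, with 7 of 7 estimates above 0. Neurons were the only marker list with genes called in this comparison. Of its 6 markers 1 was higher and 1 lower in KO, 4 did not pass, and the median was 0.76. The part of these cell types in the mitosis values was not tested.

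**Figure D5:**
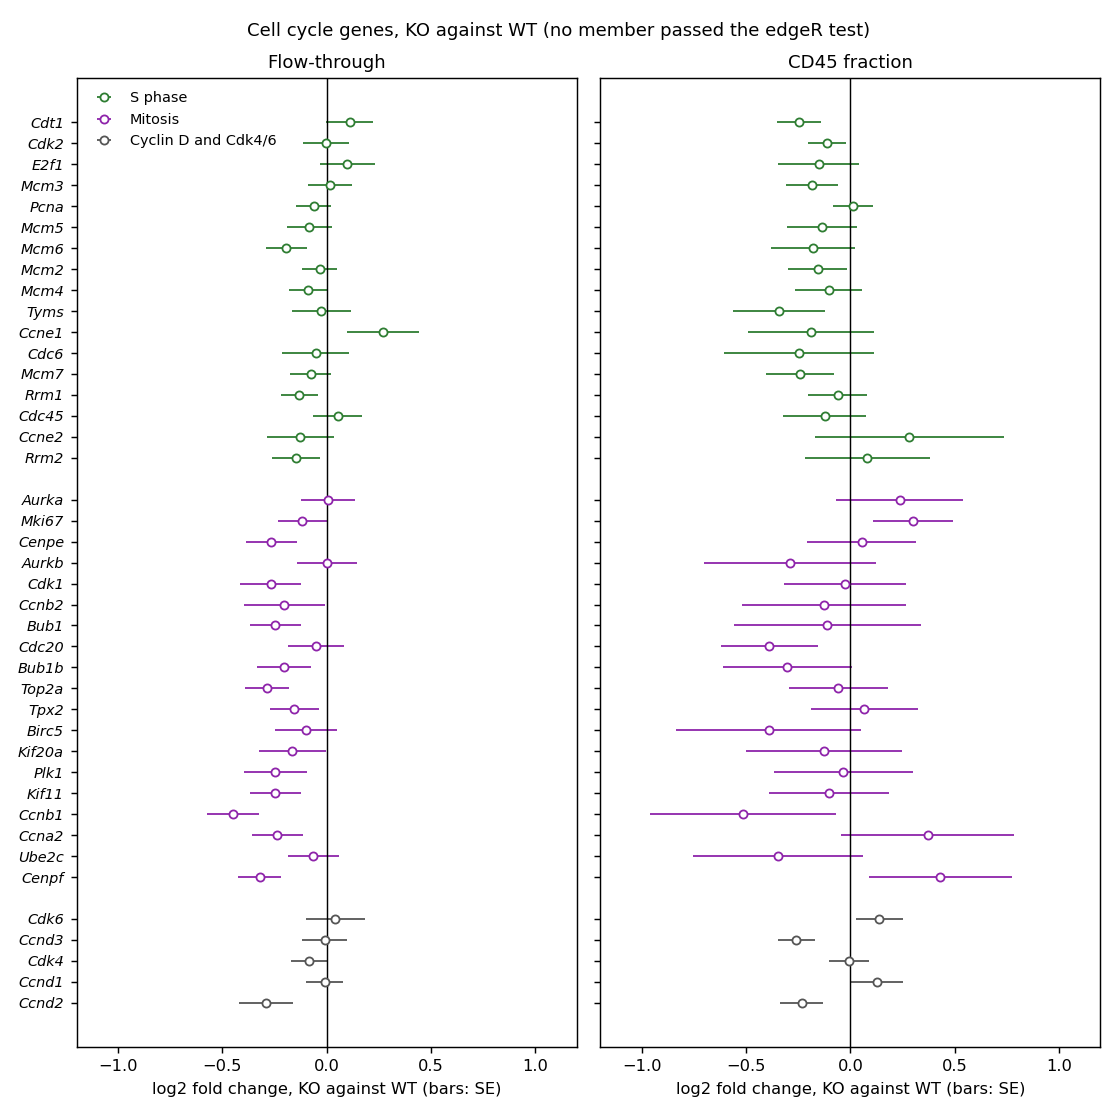
Log2 fold change of the 41 genes in KO against WT within the flow-through and within the CD45 fraction on the x axes. Bars are 1 SE derived from edgeR's F statistic. None passed the test in either fraction; in the flow-through 17 of 19 mitosis genes lie below 0, and in CD45 the bars of the mitosis genes are wider, on 4 to 758 counts per gene and library.

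In the CD45 fraction none of the 41 genes passed between KO and WT. Nor did any other gene with edgeR (0% of 15660 tested, 693 or 4.43% at an unadjusted p under 0.05), while DESeq2 called 9. The S phase genes had a median of -0.15, with 14 of 17 estimates below 0, and mitosis genes -0.10, with 13 of 19 below 0, against 45.5% of all genes and a median of 0.02. At an unadjusted p under 0.05 there were Cdt1, Ccnd2 and Ccnd3.

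Ccnd3 had the smallest p, with 112, 114 and 97.8 CPM in WT and 90.96, 84.2, 85.6 and 97.5 in KO (log2 fold change -0.26, SE 0.090, adjusted p 0.97 in edgeR). Cdt1 read 41.4, 43.98 and 49.9 CPM in WT and 40.6, 40.1, 36.5 and 33.8 in KO (-0.25, SE 0.105), and Cdc20 read 4.27, 4.09 and 3.91 CPM in WT and 3.82, 3.26, 2.42 and 2.78 in KO (-0.39, SE 0.232). In these 3 genes all KO libraries lay below all WT libraries, as in 3.14% of all genes, with 2.1% the other way. Ccnd2 read 81.2, 91.1 and 99.98 CPM in WT and 67.9, 76.1, 81.9 and 80.9 in KO, with overlap (-0.23, SE 0.104). Mki67, Cdk1 and Top2a gave 0.30 (SE 0.193), -0.03 (SE 0.293) and -0.06 (SE 0.236), so that differences of the size seen between the fractions lie far outside these errors and small ones do not.

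CD45 KO replicate 3, the shallowest library at 11574414 counts, was the lowest of the 7 CD45 libraries for 11 of 19 mitosis and 11 of 17 S phase genes, against 16.3% of all genes. CD45 KO replicate 2 was the highest for 10 of 19 mitosis genes. Without replicate 3 the S phase median was -0.05 and the mitosis median was 0.08, and without replicate 2 they were -0.25 and -0.27. No member passed in either case.

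The test of whether the KO difference itself differed between the fractions called 0 of 41 members and 0% of all 18098 genes with edgeR (1305 or 7.21% at an unadjusted p under 0.05, and 43 with DESeq2). The smallest p among the members belonged to Cenpf, whose KO difference was 0.73 higher on the log2 scale in CD45 than in the flow-through (SE 0.295, adjusted p 0.67 in edgeR). Cdt1 had -0.38 (SE 0.166, adjusted p 0.68), Ccnd3 -0.27 (SE 0.152, adjusted p 0.74) and Mki67 0.39 (SE 0.248, adjusted p 0.76). The CD45 values of Cenpf behind this were 1.73, 1.597 and 1.53 CPM in WT and 1.54, 3.38, 1.69 and 2.04 in KO, 1 KO library standing above the others. For Mki67 they were 31.1, 28.3 and 25.9 CPM in WT and 28.4, 39.5, 25.6 and 45.3 in KO, with 2 KO libraries above all WT libraries and the other 2 within or below them.

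With the filter, edgeR called none of the further cell cycle genes between genotypes in either fraction or in the interaction. In the flow-through the 44 further mitotic genes had a median of -0.22, with 40 below 0 and 11 at an unadjusted p under 0.05, against 51.7% and 11% of all genes. Nusap1, Kif18a and Smc4 had -0.38, -0.45 and -0.37, and without the filter on low counts Kif18a (-0.45, edgeR adjusted p 0.032) and Smc4 (-0.37, edgeR adjusted p 0.018) passed. The 35 further replication genes had a median of -0.07, with Pola1 at -0.31, Dtl at -0.27 and Hells at -0.25. In CD45 the medians were -0.01 for the mitotic and -0.13 for the replication genes. The smallest p values there belonged to Cdc25c (1.10), Mybl2 (-0.50) and Hmmr (-0.64), and to Mcm10 (-0.44), Pold1 (-0.32) and Chaf1b (-0.39). In the interaction they belonged to Cdc25c (1.42), Mybl2 (-0.72) and Smc4 (0.47), and to Rfc3 (0.33), Mcm10 (-0.39) and Pold1 (-0.26), all with an edgeR adjusted p of 0.53 or more.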

How the data were processed

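Bulk RNA-seq libraries of injured mouse cortex were used as whole-number gene counts, the raw form in which the authors deposited them, with a table for each fraction. Per the labels' protocols the libraries came from a stranded mRNA kit with 14 PCR cycles. Per the submitters' processing notes, Trim Galore, FastQC, STAR 2.7.9a, DESeq2 and the build GRCm38 were used. How reads were counted, with which strand setting and annotation, is not stated in these sources, so genes that overlap on opposite strands are uncertain. Of the 41 members 15 share exonic bases with another gene, 7 of them over 10% or more of their length. Of 33223 genes 33130 were matched to GENCODE M21, which gave symbols, positions and exon lengths.

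Groups follow the labels, and replicate numbers are in accession order and pair nothing. Chi-square tests of 18 within-group library pairs gave 10.2 to 55.2 per degree of freedom, and none was treated as a duplicate. The test was edgeR 4.0.16 on R 4.3.3 (glmQLFit with robust estimation, glmQLFTest, TMM scaling, filterByExpr with a minimum count of 10 and a total of 15), with 1 mean per group and Benjamini-Hochberg adjustment over all genes tested. The edgeR test gives no SE, so each SE is the absolute log2 fold change divided by the square root of the test's F statistic. KO was compared with WT within each fraction, and the fractions and the interaction used all 14 libraries. The method was tested on simulated data. Alternatives were upper quartile scaling, DESeq2 1.42.0, no filter, each library left out, the library left out entered as labelled, a joint fit and WT libraries only. Library totals with no scaling factor were added after seeing the data.

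Members and lists were chosen with earlier results of these data known. Values per library are given for the 3 S phase and 3 mitosis genes most abundant per kb in each fraction, the 3 highest and 3 lowest fraction log2 fold changes of each group, the D-cyclin group, Mki67, Top2a, Ccnb1, Cdk1, Pcna and the 4 members with the smallest p in each genotype comparison and the interaction. Of each other list the 3 genes with the smallest p in a comparison are named, apart from 1 gene that is not reported here. Promoter sequences are RefSeq's, with no window found for Aurkb, Ccna2, Ccnd1, Ccnd2, Ccne2, Kif20a, Mcm4 and Tpx2.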

Additional observations from a re-analysis of the deposited data

Results flagged for a closer look

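In each group of 4 libraries the highest or lowest library was checked for a gap to the others beyond Dixon's critical value, over 90 groups of values, and 4 stood apart. Chance alone does so in about 1 of 20 groups. CD45 KO replicate 2 stood above the other CD45 KO libraries for Rrm2, at 11.7 CPM against 5.31 to 6.22, and for Ccna2, at 7.31 CPM against 2.35 to 2.96. Flow-through WT replicate 4 stood below the other flow-through WT libraries for Ccnd2, at 179.4 CPM against 210.4 to 214.5. Flow-through WT replicate 3 stood below the others for the summed mitosis genes, at 418.4 CPM against 480.4 to 492.3. In every case the library stayed on its own fraction's side of the other fraction's values.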

How the results depend on the processing

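The 19 mitosis genes were lower in CD45 under each alternative run. With upper quartile scaling the fraction comparison had 8 lower S phase genes and an S phase median of -0.118, and with no scaling factor it had 12, -0.389 and a mitosis median of -2.689. Signs turned for Mcm2 (-0.077 and -0.349 in the same order), Mcm4 (-0.118 and -0.389) and Mcm6 (-0.054 and -0.326). With no scaling factor they also turned for Mcm5 (-0.225), Pcna (-0.204), Kif23 (-0.216) and, between genotypes in CD45, Cdk1 (0.007). With WT libraries only they turned for Ccne1 (0.067) and Tyms (0.113). Mcm2 passed as higher without flow-through KO replicate 3 (0.213) and without CD45 KO replicate 3 (0.217) or 4 (0.216) or CD45 WT replicate 3 (0.231). Mcm4 passed without CD45 WT replicate 3 (0.224), Mcm6 without CD45 KO replicate 3 (0.279) and Cdc6, as lower, without CD45 KO replicate 2 (-0.460). With WT libraries only, Mcm2 (0.303) and Mcm6 (0.256) passed as higher. Kif23 did not pass without flow-through KO replicate 2 (0.237) or CD45 WT replicate 1 (0.28), with upper quartile scaling (0.064) or with WT libraries only (0.165). With upper quartile scaling Mcm5 (0.048) and Pcna (0.071) did not pass and Ccne1 (-0.479), Cdc6 (-0.572) and Tyms (-0.362) passed as lower, the latter 3 also with no scaling factor (-0.750, -0.840 and -0.635). With the library left out entered as labelled, Mcm5 (0.252) did not pass.

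Between genotypes in the flow-through the genes called numbered 629 without the filter, 420 with DESeq2, 30 in the joint fit and 134 to 287 with 1 library left out (144 without WT replicate 2, 159 without WT replicate 3, 134 without KO replicate 1, 163 without KO replicate 2). There was 1 lower mitosis gene, Ccnb1, without the filter and with DESeq2. With the library left out entered as labelled, 0 genes were called, the mitosis median was 0.035, Mki67 was 0.092, the interaction's mitosis median was -0.125 and Cdt1 in the interaction was 0.028. That library has a CD45 profile. Mki67 in the flow-through ran from -0.240 to 0.033 with 1 library left out, the latter without KO replicate 2. In CD45, DESeq2 called 9 genes and leaving out 1 library gave 0 to 1. Cdk1 there ran from -0.292 to 0.136 and was 0.065 and 0.043 without WT replicates 1 and 2, 0.136 and 0.046 without KO replicates 3 and 4. Top2a ran from -0.259 to 0.082 and was 0.019 and 0.074 without WT replicates 1 and 2 and 0.082 without KO replicate 3. In the interaction, 15 genes were called without the filter, 43 with DESeq2 and 0 to 2 with 1 library left out. The cause of these changes was not tested, apart from the shift that each scaling applies to all genes.

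No paired analysis was possible because the labels carry no replicate numbers and do not tie libraries to animals. CD45 libraries hold as few as 4 counts of Ube2c and 5 of Birc5, which limits the precision of genotype differences among mitosis genes there.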

Other observations

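Of the 44 mitotic genes outside the 41 members, 5 were higher in CD45: Cenpa at 1.94, Cdc25b at 1.93, Cks2 at 1.90, Incenp at 0.63 and Kif23 at 0.32 (log2 fold change, edgeR adjusted p under 0.05). Cenpa is the histone variant of centromeres, Cdc25b a phosphatase that activates Cdk1, Cks2 a small partner of Cdk1, Incenp the scaffold of the chromosomal passenger complex and Kif23 a motor of the cleavage furrow. With no scaling factor Kif23 was -0.22 (0.06, not passing, with upper quartile scaling) and Incenp no longer passed (0.11), while Cenpa, Cdc25b and Cks2 stayed higher. Incenp thus lay on the other side of 0 from its partners Aurkb and Birc5, at -1.41 and -2.37.

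Of 17 inhibitors of the cycle, 9 were higher in CD45, 7 were lower and 1 did not pass, with a median of 0.34 (6 higher, 9 lower and -0.20 with no scaling factor), beside 41.4% higher and 44.7% lower among all genes (28.1% and 59.3% with no scaling factor). Btg1 and Btg2, antiproliferative genes of the same family, were higher at 3.70 and 3.17, the p21 gene Cdkn1a at 1.11 and the p27 gene Cdkn1b at 1.30, while Gadd45g was lower at -1.81. Among 17 genes of the E2F, DREAM and pocket protein families 7 were higher and 7 lower (4 and 11 with no scaling factor), also near the shares of all genes: E2f2, an activator, was higher at 2.07, E2f4, the E2F of the DREAM complex, at 1.39, and Tfdp2, a dimer partner of E2F, was lower at -2.74. Cdkn1a and Cdkn1b were picked after their values were seen. Between genotypes in the flow-through the inhibitor Btg2 had -0.38 (edgeR adjusted p 0.072), Gadd45g 0.36 and Gadd45b 0.25, and the pocket protein genes Rbl1 and Rb1 had -0.31 and -0.29 and their partner Rbbp4 -0.16. Btg2 passed with DESeq2 (-0.38, adjusted p 0.010), without the filter (-0.38, edgeR adjusted p 0.012) and without flow-through KO replicate 2 (-0.47, edgeR adjusted p 0.048), and Gadd45g passed without the filter (0.36, edgeR adjusted p 0.019). In CD45 the smallest p values belonged to Fzr1 (-0.32), Gadd45a (-0.41) and Pkmyt1 (-0.31) and to Lin9 (0.32), E2f7 (0.66) and E2f8 (0.30). In the interaction they belonged to Fzr1 (-0.39), Btg2 (0.36) and Gadd45b (-0.53) and to Rbl1 (0.36), Lin9 (0.46) and E2f7 (0.71). None of these passed the edgeR test as reported.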
